A study of Mus musculus with 6 samples.

Results

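The genes described here encode the chemokines and their receptors, in native CFs of WT and CharmeKO mice. They were chosen by symbol alone, as all genes named Ccl, Cxcl, Cx3cl or Xcl (ligands) and Ccr, Cxcr, Cx3cr, Xcr or Ackr (receptors) followed by a number, which gave 63 of the 49548 genes in the count table: 41 ligands and 22 receptors. The libraries came from hearts of C57BL/6J mice aged 5 weeks, with 3 WT and 3 CharmeKO libraries and no other treatment. In CharmeKO a PolyA signal had been inserted in the locus of *Charme*, a long noncoding RNA of heart and muscle, and this allele is carried by all cells of the animal and not by CFs alone. The hearts were dissociated with enzymes and depleted of hematopoietic lineage cells, which leaves non-cardiomyocyte populations in general, so "native CFs" is the name of a preparation and not of a sorted cell type. The labels also list a culture medium for these libraries, whereas the study describes the native cells as freshly isolated. Polyadenylated RNA was sequenced in directional libraries.

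Chemokines are small secreted or membrane-bound proteins that bind to matrix sugars and steer leukocytes and other cells along gradients. Their receptors cross the cell membrane several times and signal through Gi proteins, while the atypical receptors of the Ackr group bind chemokines without this coupling and take them up or transport them. In the heart, fibroblasts, endothelial cells and mural cells are known as sources of *Cxcl12* and, in injury, of ligands that draw in monocytes, neutrophils and T cells, whereas most signalling receptors are carried by leukocytes.

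The total counts ranged from 9595701 to 42101393 per library, and the lowest total was that of WT replicate 3. A count of 0 allows up to 3 counts, equal to between 0.0713 and 0.313 CPM (counts scaled to the library's total), and such limits cover counting error only. *Charme* had 26, 15 and 4 counts in WT replicates 1, 2 and 3 and 7, 0 and 0 counts in CharmeKO replicates 1, 2 and 3, so that CharmeKO replicate 1 still had counts of the targeted transcript. *Xist*, expressed from the inactive X chromosome of females, was above 100 CPM in WT replicate 1 and CharmeKO replicates 1 and 2, and at most 2.55 CPM in the other libraries, so the groups hold unequal numbers of either kind. The Y-linked genes *Ddx3y*, *Eif2s3y*, *Kdm5d* and *Uty* summed to 0, 113 and 95.3 CPM in WT and 4.75, 0 and 95.9 CPM in CharmeKO. CharmeKO replicate 1 thus had high *Xist* and some Y-linked RNA, and the cause was not tested. The fibroblast markers (9 of 9 tested, summed level 10145 to 14897 CPM) and the endothelial markers (9 of 9 tested, 7590 to 10262 CPM) were abundant in each library, and the erythroid markers reached 24411 to 39207 CPM. The markers of macrophages (10 of 11 tested) summed to 22.3 to 34.5 CPM in WT and 24.8 to 35.2 CPM in CharmeKO, those of T and NK cells (3 of 9 tested) to at most 8.59 CPM, and those of neutrophils (3 of 6 tested) to at most 3.01 CPM, with *Ly6g* at 0 counts in all libraries. The 4 B cell markers summed to 24.9 to 57.0 CPM.

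Of the 63 genes, 50 had a count in any library, and 35 (23 ligands and 12 receptors) reached at least 10 counts in at least 2 libraries and were tested, among 15789 genes in all. Another 15 had counts but never above 21 in a library: *Ccl1*, *Ccl4*, *Ccl9*, *Ccl17*, *Ccl22*, *Ccl24*, *Cxcl13*, *Xcl1*, *Ccr1*, *Ccr4*, *Ccr9*, *Ccr10*, *Cxcr2*, *Cxcr3* and *Cx3cr1*. The other 13 had 0 counts in all libraries, namely *Ccl12*, *Ccl20*, *Ccl21b*, *Ccl21d*, *Ccl21e*, *Ccl21f*, *Ccl26*, *Ccl27b*, *Cxcl15*, *Cxcl17*, *Ccr3*, *Cxcr1* and *Xcr1*. For the Ccl21 and Ccl27 genes these zeros are uncertain, because their transcripts are near-identical to one another, and the counts of STAR leave out reads that match several places. Only 16 of the 63 (11 ligands and 5 receptors) had a mean of at least 10 CPM over the 6 libraries.

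Among these genes *Cxcl9* and *Cxcl10* passed the test between the groups, and both fell. These ligands of *Cxcr3*, a chemokine receptor of T cells, lie close together on chromosome 5 and are best known as genes induced by interferons. The sequences around their starts are shown first, because inducible chemokine genes are known to be switched on from short elements just before the gene, together with those of *Cxcl1* and *Cxcl12*, the most abundant ligands per kb of transcript, which did not pass the test. Each is the RefSeq sequence of 300 bases on GRCm38.p6, from 250 bases before to 50 bases after the start, read in the direction of the gene, whereas the counts were made on GRCm39. Capitals mark matches to the letters of the interferon-stimulated response element (searched as the 9 letters GAAANNGAA) and of the NF-kappaB element (searched as GGGANNTTC), on either strand.
Cxcl10 (chr5:92348840-92349139, minus strand): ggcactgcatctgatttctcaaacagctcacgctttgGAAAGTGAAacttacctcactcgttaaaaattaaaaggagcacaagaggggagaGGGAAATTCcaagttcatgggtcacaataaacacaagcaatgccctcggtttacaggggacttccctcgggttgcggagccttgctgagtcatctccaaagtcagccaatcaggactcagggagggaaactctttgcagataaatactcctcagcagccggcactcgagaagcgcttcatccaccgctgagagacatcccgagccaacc
Cxcl9 (chr5:92328030-92328329, minus strand): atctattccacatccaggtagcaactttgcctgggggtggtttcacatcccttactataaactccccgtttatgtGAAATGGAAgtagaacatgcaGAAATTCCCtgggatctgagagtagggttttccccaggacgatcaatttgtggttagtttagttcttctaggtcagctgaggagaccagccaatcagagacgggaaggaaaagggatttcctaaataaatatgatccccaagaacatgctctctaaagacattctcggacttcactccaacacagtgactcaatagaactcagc
Cxcl1 (chr5:90890995-90891294, plus strand): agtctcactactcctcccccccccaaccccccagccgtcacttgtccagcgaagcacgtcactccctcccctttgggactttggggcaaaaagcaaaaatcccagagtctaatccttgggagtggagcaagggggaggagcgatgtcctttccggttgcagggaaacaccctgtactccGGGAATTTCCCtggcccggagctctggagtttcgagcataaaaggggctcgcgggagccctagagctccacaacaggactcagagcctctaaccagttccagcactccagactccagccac
Cxcl12 (chr6:117168285-117168584, plus strand): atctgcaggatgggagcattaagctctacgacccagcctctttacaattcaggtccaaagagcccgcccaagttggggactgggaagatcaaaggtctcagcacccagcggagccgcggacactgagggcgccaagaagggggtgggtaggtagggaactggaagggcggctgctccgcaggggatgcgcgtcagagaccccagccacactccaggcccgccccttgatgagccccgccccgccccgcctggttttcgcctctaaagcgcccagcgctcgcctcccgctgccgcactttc

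The *Cxcl10* window holds the searched letters of both elements on the strand of the gene. These are GAAAGTGAA at 213 to 205 bases before the start and GGGAAATTC at 159 to 151 bases before it. The *Cxcl9* window also holds the searched letters of both. GAAATGGAA stands at 175 to 167 bases before the start, and the NF-kappaB letters on the opposite strand at 154 to 146 bases before it. *Cxcl1* has the NF-kappaB letters on both strands, overlapping in the 11 capitals of its window, and no match to the interferon letters. *Cxcl12* matches neither. Of all 32851 promoter windows of this length in the table, 8.56% hold the interferon element and 3.94% the NF-kappaB element. The gamma-activated site, searched as TTCNNNGAA, stands in 8.30% of windows and in neither *Cxcl9* nor *Cxcl10*. Windows were at hand for 46 of the 63 genes, 53 windows in all. A gene was counted when any of its windows matched, whereas the shares above are of windows, so the 2 are not on the same footing. Among the 46 genes, 8 hold the interferon element (*Ccl1*, *Ccl3*, *Ccl19*, *Ccr2*, *Cxcl9*, *Cxcl10*, *Cxcl14* and *Cxcr1*). The NF-kappaB element stands in 8 (*Ccl1*, *Ccr3*, *Cxcl1*, *Cxcl2*, *Cxcl3*, *Cxcl9*, *Cxcl10* and *Cxcr2*), and *Ccl1*, *Cxcl9* and *Cxcl10* hold both. Only these letters were searched, so other forms of the elements are neither marked in the windows nor counted in the shares. The elements were picked with the results known, and a match of letters describes the window without showing that a factor binds there.

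*Cxcl10* (ENSMUSG00000034855) was at 88.5, 88.9 and 90.6 CPM in WT replicates 1, 2 and 3, and at 21.1, 20.4 and 25.0 CPM in the CharmeKO replicates in the same order (TMM-normalized CPM, as throughout). The WT libraries were nearly level, and every CharmeKO library lay far below them. The log2 fold change was −2.01 ± 0.12 (SE, n = 3 per group), or 4.02-fold lower, with a 95% interval of 3.37 to 4.80-fold (edgeR quasi-likelihood test, adjusted p = 3.01e-06). By p-value *Cxcl10* ranked 9 among the 15789 tested genes. *Cxcl10* is secreted by stromal and endothelial cells after interferon stimulation and attracts activated T and NK cells.

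*Cxcl9* (ENSMUSG00000029417) was at 58.4, 61.7 and 67.1 CPM in the WT libraries and at 10.4, 11.8 and 21.3 CPM in the CharmeKO libraries. The groups did not overlap, and within CharmeKO replicate 3 stood above the other libraries. The log2 fold change was −2.10 ± 0.23 (SE, n = 3 per group), or 4.29-fold lower, with a 95% interval of 3.03 to 6.06-fold (edgeR, adjusted p = 0.000802). Without CharmeKO replicate 1, the library with remaining *Charme* counts, the log2 fold change was −1.97 for *Cxcl10* and −1.90 for *Cxcl9*, with adjusted p-values of 0.000120 and 0.00515 in edgeR. With a term for the *Xist* split both genes passed the threshold as well (edgeR, adjusted p = 9.17e-06 for *Cxcl10* and 0.000253 for *Cxcl9*). In the Xist-high libraries *Cxcl9* averaged 58.4 CPM in WT (1 library) against 11.1 CPM in CharmeKO (2 libraries), and in the Xist-low libraries 64.4 CPM (2 libraries) against 21.3 CPM (1 library). For *Cxcl10* these means were 88.5 against 20.8 CPM and 89.7 against 25.0 CPM. In bulk RNA, fewer cells expressing a gene and less RNA per cell cannot be told apart, here or for any gene below.

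The other *Cxcr3* ligand, *Cxcl11*, was near the detection limit. It had 14, 3 and 0 counts in WT and 13, 21 and 26 counts in CharmeKO, or 0.329, 0.114 and 0 CPM against 0.454, 0.859 and 0.855 CPM. Its groups did not overlap either, with CharmeKO higher, but the difference did not pass the test (log2 fold change 1.95 ± 0.83, edgeR, adjusted p = 0.360). The GENCODE annotation classes *Cxcl11* as a polymorphic pseudogene, since the gene is known to be disrupted in C57BL/6 mice, whereas the count table gives no type for it. *Cxcr3* itself had 0, 5 and 0 counts in WT and 3, 0 and 0 in CharmeKO, too few to test. The preparation thus held transcripts of the ligands and hardly any of their receptor.

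**Figure D1:**
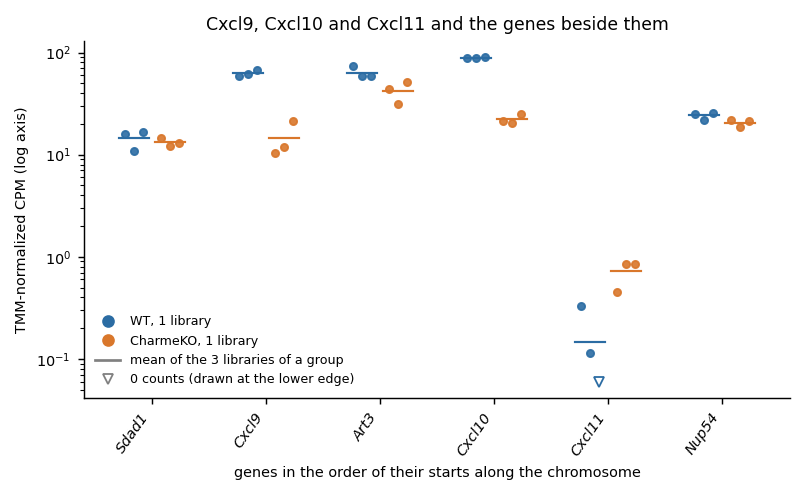
*Cxcl9*, *Cxcl10*, *Cxcl11* and the genes next to them, in the order of their starts along the chromosome, as TMM-normalized CPM on a log axis. Points are single libraries, lines are group means and open triangles are libraries with 0 counts. The CharmeKO points of *Cxcl9* and *Cxcl10* lie well below the WT points, those of *Art3* lie a little lower, and those of *Sdad1* overlap with WT.

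None of the genes beside them passed the test. *Art3*, on the opposite strand, spans the *Cxcl10* and *Cxcl11* genes, and 133 of its exonic bases lie across the 2252 exonic bases of *Cxcl10*. It was at 73.6, 58.7 and 59.1 CPM in WT and 43.8, 31.1 and 51.7 CPM in CharmeKO, with groups that did not overlap. Its log2 fold change of −0.60 ± 0.17 did not pass the threshold (edgeR, adjusted p = 0.183, and DESeq2, adjusted p = 0.052). *Nup54*, a nuclear pore gene, was lower in each CharmeKO library than in WT at a log2 fold change of −0.23 ± 0.13 (edgeR, adjusted p = 0.507). *Sdad1*, on the other side of *Cxcl9*, had a log2 fold change of −0.12 ± 0.19 (edgeR, adjusted p = 0.835), with overlapping groups. The counts were made with strand, which keeps reads of *Cxcl10* and *Art3* apart as far as the libraries kept it.

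Across the 35 tested chemokine and receptor genes, 2 were lower and 0 were higher in CharmeKO by edgeR at an adjusted p under 0.05, where the test called 0.830% of all tested genes, 0.412% lower and 0.418% higher. DESeq2 called the same 2 genes, against 2.50% of all tested genes. At an unadjusted p under 0.05, 9 of the 35 genes were counted (4 lower, 5 higher), against 12.8% of all genes (6.87% lower, 5.90% higher). The groups did not overlap for 8 of the 35 (4 lower, 4 higher), against 18.2% of all genes (8.59% lower, 9.57% higher). The median log2 fold change was 0.12 over the 35 genes, 0.24 over the 23 ligands and −0.13 over the 12 receptors, beside 0.01 over all tested genes. The median over the 35 genes was −0.08 when WT replicate 2 was left out. The 33 genes that were not called had adjusted p-values between 0.243 and 0.995 in edgeR, and 12 of the 35 tested genes had a mean below 1 CPM, where the intervals are wide.

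**Figure D2:**
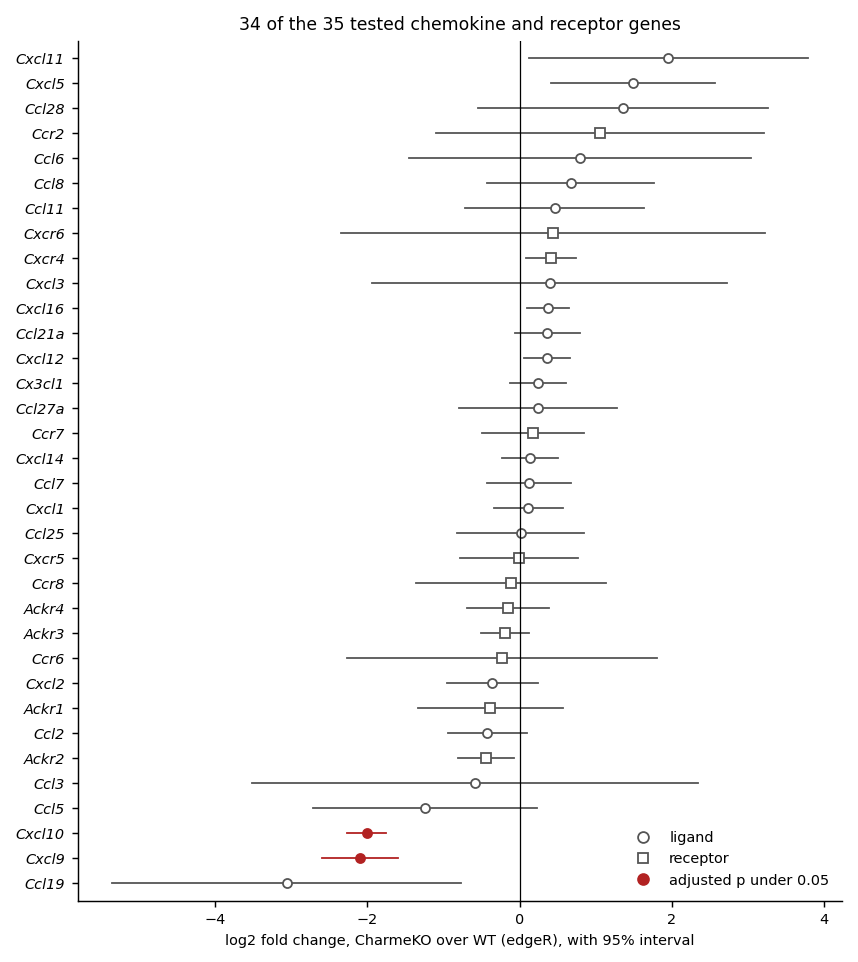
Log2 fold change of CharmeKO over WT for 34 of the 35 tested genes, with the 95% interval of edgeR's test. Circles are ligands, squares are receptors, and filled red symbols have an adjusted p under 0.05. *Cxcl9* and *Cxcl10* stand at −2.10 and −2.01 with intervals clear of 0, while *Ccl19*, at −3.06, has an interval from −5.35 to −0.77.

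The summed level of the 41 ligands was 2107, 2044 and 1975 CPM in WT and 2283, 2042 and 2458 CPM in CharmeKO, so the groups overlapped. To compare genes, levels were divided by the exonic length in GENCODE M21. On this scale, averaged over all 6 libraries, *Cxcl1* was the highest ligand at 378 ± 83.2 CPM per kb (SD, n = 6), followed by *Cxcl12* at 129 ± 20.3, *Ccl21a* at 51.7 ± 12.2, *Ccl2* at 35.3 ± 10.4, *Ccl7* at 35.04 ± 9.58 and *Cxcl14* at 29.9 ± 5.59 CPM per kb. *Cxcl1* and *Cxcl12* together made up 64.7% ± 4.56 (SD, n = 3) of the summed ligand CPM per kb in WT and 70.6% ± 1.53 in CharmeKO. *Ccl2*, *Ccl7* and *Cxcl14* did not differ in level beyond their spread. In WT, *Cxcl10* averaged 39.7 CPM per kb, between *Ccl2* at 40.5 and *Ccl7* at 33.6, and in CharmeKO it averaged 9.85. *Cxcl9* averaged 20.7 CPM per kb in WT and 4.81 in CharmeKO. *Cxcl10* made up 5.40% ± 0.094 (SD, n = 3) of the summed ligand CPM per kb in WT and 1.32% ± 0.180 in CharmeKO, and *Cxcl9* 2.81% ± 0.149 and 0.626% ± 0.175. The ratio of *Cxcl9* to *Cxcl10* per kb was 0.492, 0.518 and 0.553 in WT and 0.367, 0.432 and 0.636 in CharmeKO, so the proportion of these ligands to each other overlapped between the groups.

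*Cxcl12*, the ligand of *Cxcr4* and *Ackr3* that retains stem cells and leukocytes and acts in vessel growth, was at 1052, 877 and 834 CPM in WT and 1153, 1260 and 1133 CPM in CharmeKO. Every CharmeKO library was higher than every WT library, yet the difference did not pass the test (log2 fold change 0.36 ± 0.14, edgeR, adjusted p = 0.302). In CPM per kb its receptors were led by *Ackr3*, a scavenger of *Cxcl12*, which at 157 ± 20.5 (SD, n = 6) was the highest of all 22 receptors and made up 75.6% to 85.8% of the summed receptor level in each library. *Ackr3* was at 526, 589 and 568 CPM in WT and 477, 417 and 584 CPM in CharmeKO, with overlapping groups (log2 fold change −0.19 ± 0.14, edgeR, adjusted p = 0.639). *Cxcr4*, the signalling receptor, was at 23.6, 20.1 and 21.3 CPM in WT and 32.0, 31.1 and 23.5 CPM in CharmeKO. Its lowest CharmeKO library lay just below the highest WT library (log2 fold change 0.41 ± 0.15, edgeR, adjusted p = 0.280). The ratio of *Cxcl12* to *Ackr3* per kb ranged from 0.602 to 0.818 in WT and from 0.794 to 1.24 in CharmeKO, and that of *Cxcl12* to *Cxcr4* from 8.66 to 9.86 and from 7.96 to 10.7, each with overlapping groups.

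**Figure D3:**
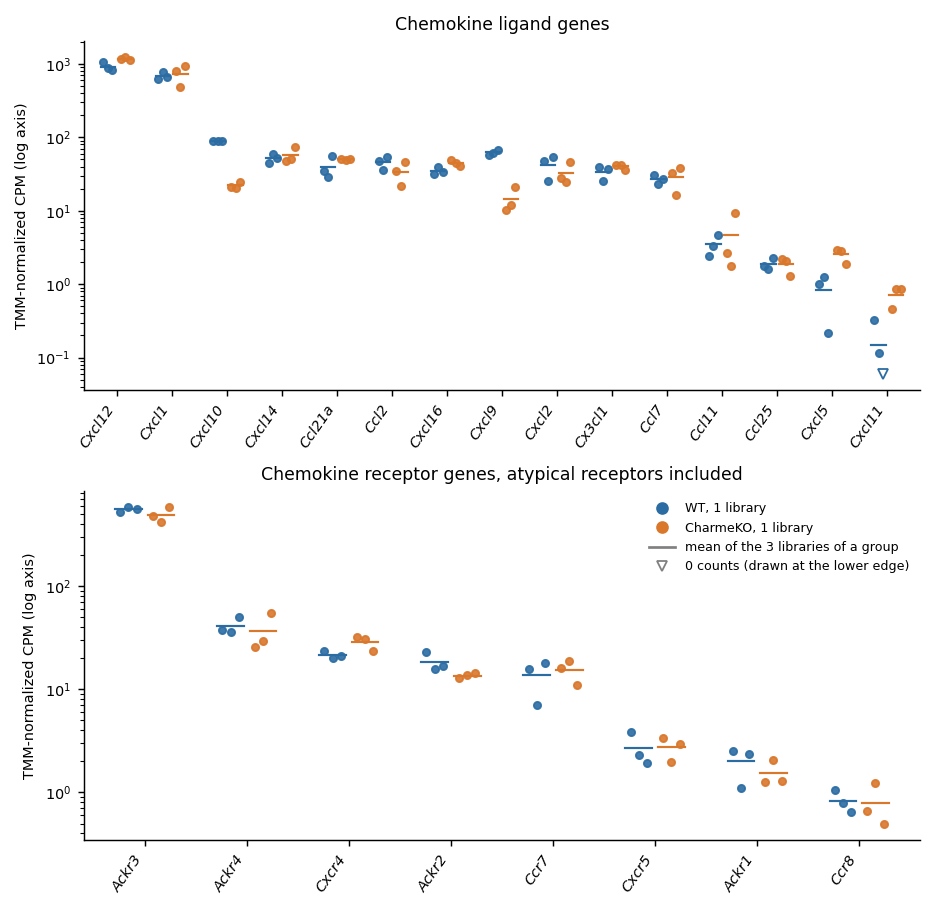
TMM-normalized CPM, on a log axis, of the 15 ligand and 8 receptor genes chosen by abundance or as *Cxcr3* ligands, ordered by mean level. Points are single libraries, lines are group means and the open triangle is a library with 0 counts. Levels are not divided by transcript length. In the plot only *Cxcl9* and *Cxcl10* show CharmeKO points far below WT.

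Ligands of *Cxcr2*, the neutrophil receptor, came next. *Cxcl1* was at 619, 768 and 654 CPM in WT and 801, 484 and 927 CPM in CharmeKO, with CharmeKO replicates 2 and 3 on either side of all WT libraries (log2 fold change 0.12 ± 0.21, edgeR, adjusted p = 0.865). *Cxcl2*, a close relative, was at 48.1, 25.4 and 54.1 CPM in WT and 28.1, 25.0 and 45.6 CPM in CharmeKO (log2 fold change −0.36 ± 0.27, edgeR, adjusted p = 0.632). *Cxcl5*, another ligand of this kind, was low, at 1.01, 1.26 and 0.215 CPM in WT and 2.90, 2.82 and 1.91 CPM in CharmeKO. Its groups did not overlap (log2 fold change 1.49 ± 0.49), and it missed the threshold with an adjusted p of 0.243 in edgeR and 0.0916 in DESeq2. When all genes with 1 count in any library were tested, *Cxcl5* passed with an adjusted p of 0.0417 in edgeR, in a fit that called 2.84% of 24579 genes, 1.03% higher. *Cxcr2* had counts only in WT replicate 1, and *Cxcr1* had none.

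Among the inflammatory CC ligands, *Ccl2* and *Ccl7*, which recruit monocytes through *Ccr2*, lie side by side on chromosome 11. *Ccl2* was at 47.6, 36.1 and 54.5 CPM in WT and 34.5, 21.6 and 46.4 CPM in CharmeKO (log2 fold change −0.42 ± 0.24, edgeR, adjusted p = 0.487). *Ccl7* was at 30.4, 23.0 and 27.4 CPM in WT and 33.04, 16.4 and 38.2 CPM in CharmeKO (log2 fold change 0.12 ± 0.25, edgeR, adjusted p = 0.886). The groups overlapped for both, but the ratio of *Ccl7* to *Ccl2* per kb, 0.907, 0.903 and 0.715 in WT, was higher in each CharmeKO library, at 1.36, 1.08 and 1.17. This ratio was not tested, and the groups of single genes did not overlap for 18.2% of all tested genes. The ratio of *Cxcl2* to *Cxcl1*, formed alike, was 0.0300 to 0.0750 in WT and 0.0318 to 0.0469 in CharmeKO, so its groups overlapped. *Ccl11*, an eosinophil attractant, was at 2.40, 3.31 and 4.73 CPM in WT and 2.69, 1.76 and 9.41 CPM in CharmeKO, and its log2 fold change of 0.46 ± 0.53 turned to −0.61 without CharmeKO replicate 3. CharmeKO replicate 2 was the lowest and replicate 3 the highest of their group for each of *Cxcl1*, *Cxcl2*, *Ccl2*, *Ccl7* and *Ccl11*. This set was named after the values were seen. *Cxcl10* had the same order within CharmeKO, at 21.1, 20.4 and 25.0 CPM. *Cxcl9* was also highest in replicate 3, at 10.4, 11.8 and 21.3 CPM. Both were lower than WT in all 3. Of the other CC ligands of this kind, *Ccl5*, *Ccl6* and *Ccl8* were at most 2.40 CPM in any library and *Ccl3* at most 0.430 CPM, with edgeR adjusted p-values of 0.469, 0.806, 0.628 and 0.895. Of the receptors of these ligands, *Ccr2* was at most 1.26 CPM in any library. *Ccr1* had 3 and 6 counts in CharmeKO replicates 1 and 3 and 0 elsewhere, and *Ccr3* had none.

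Among the homeostatic ligands, *Ccl21a*, which guides Ccr7-bearing cells into lymphatic vessels, was at 35.2, 28.4 and 55.2 CPM in WT and 50.9, 48.7 and 51.4 CPM in CharmeKO (log2 fold change 0.36 ± 0.20, edgeR, adjusted p = 0.469), a value that is uncertain because of its near-identical copies. *Ccr7*, its signalling receptor, was at 15.8, 7.04 and 18.1 CPM in WT and 16.0, 18.9 and 10.9 CPM in CharmeKO (log2 fold change 0.18 ± 0.31, edgeR, adjusted p = 0.856). *Ackr4*, the scavenger of the same ligands, was at 37.5, 36.2 and 50.02 CPM in WT and 26.0, 29.4 and 54.7 CPM in CharmeKO (log2 fold change −0.16 ± 0.25, edgeR, adjusted p = 0.842). All 3 thus overlapped between the groups. *Ccl19*, the other ligand of *Ccr7*, was chosen for mention after its values were seen, at 20, 24 and 9 counts in WT and 0, 6 and 1 counts in CharmeKO. At 0.470, 0.913 and 0.968 CPM against 0, 0.245 and 0.0329 CPM its groups did not overlap, but it did not pass the test (log2 fold change −3.06 ± 1.05, edgeR, adjusted p = 0.262), and 57.8% of its longest transcript matches the gene *Gm2564* at 98.9% identity.

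The membrane-bound ligands *Cxcl16* and *Cx3cl1*, which can be shed from the cell surface, were both well expressed. *Cxcl16* was at 31.9, 38.9 and 33.6 CPM in WT and 48.8, 45.4 and 41.2 CPM in CharmeKO, higher in each CharmeKO library but short of the threshold (log2 fold change 0.37 ± 0.12, edgeR, adjusted p = 0.248). *Cx3cl1* was at 39.6, 25.1 and 37.4 CPM in WT and 42.4, 42.0 and 36.2 CPM in CharmeKO (log2 fold change 0.24 ± 0.17, edgeR, adjusted p = 0.588). Their receptors on leukocytes, *Cxcr6* and *Cx3cr1*, were at most 0.494 CPM in any library. *Cxcl14*, a ligand of epithelia and stroma, was at 45.0, 59.1 and 52.5 CPM in WT and 47.7, 50.4 and 73.0 CPM in CharmeKO (log2 fold change 0.13 ± 0.17, edgeR, adjusted p = 0.805). *Ccl25*, *Ccl27a* and *Ccl28*, ligands of gut and skin homing receptors, were at most 2.58 CPM in any library.

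**Figure D4:**
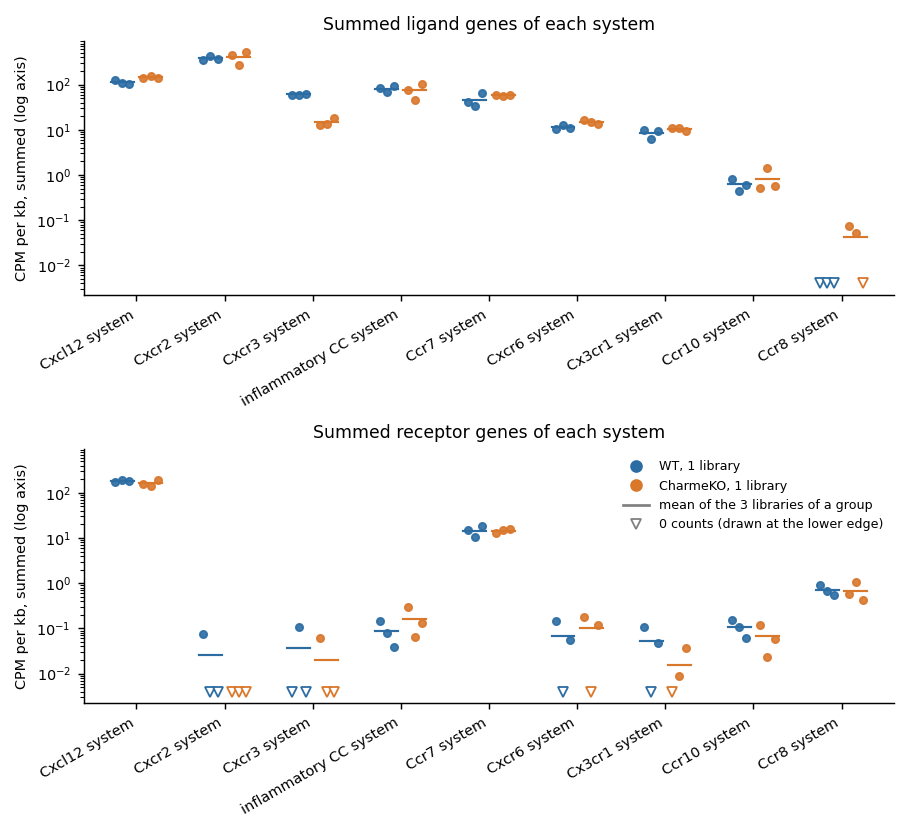
Summed CPM per kb, on a log axis, of the ligand genes (upper) and the receptor genes (lower) of 9 ligand-receptor systems, with points for single libraries, lines for group means and open triangles for 0 counts. *Ackr3* is counted with *Cxcr4* and *Ackr4* with *Ccr7*. The ligands of *Cxcr3* are the one system with CharmeKO points far below WT, at 12.9 to 18.4 against 58.7 to 62.5 CPM per kb, and the receptors *Cxcr2*, *Cxcr3*, *Cxcr6* and *Cx3cr1* are at or near 0.

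Grouped by ligand-receptor system, the ligands of *Cxcr3* summed to 58.7, 59.96 and 62.5 CPM per kb in WT and 12.9, 13.2 and 18.4 CPM per kb in CharmeKO, while the *Cxcr3* receptor was at most 0.110 CPM per kb. The ligands of *Cxcr2* summed to 384 ± 35.2 CPM per kb (SD, n = 3) in WT and 411 ± 126 in CharmeKO, and those of the inflammatory CC receptors to 81.3 ± 12.6 and 75.2 ± 29.1 CPM per kb. The receptors of these systems were at most 0.298 CPM per kb, so ligands exceeded receptors in each library. The 22 receptors summed to 637, 674 and 680 CPM in WT and 572, 517 and 694 CPM in CharmeKO, with overlapping groups, and the atypical receptors made up 82.5% to 91.8% of the receptor CPM per kb. Besides *Ackr3* and *Ackr4* these were *Ackr2*, a scavenger of inflammatory CC ligands, and *Ackr1*, which carries chemokines across venules. *Ackr2* was at 22.9, 15.6 and 16.7 CPM in WT and 12.7, 13.8 and 14.3 CPM in CharmeKO, lower in each CharmeKO library without passing the test (log2 fold change −0.44 ± 0.17, edgeR, adjusted p = 0.308). *Ackr1*, which shares 361 exonic bases with *Cadm3* on the same strand, was at 1.10 to 2.54 CPM in WT and 1.26 to 2.05 CPM in CharmeKO (edgeR, adjusted p = 0.778). *Cxcr5*, a receptor of B cells, and *Ccr8*, a receptor of T cells, were at 1.94 to 3.86 and 0.493 to 1.23 CPM over all libraries, with edgeR adjusted p-values of 0.995 and 0.960.

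The interferon pathway was set beside *Cxcl9* and *Cxcl10*, since these are among its known targets. For comparison with the counts given here, edgeR called 0.830% and DESeq2 2.50% of all tested genes. Of 39 interferon-stimulated genes, all tested, 0 passed the threshold in edgeR, with a median log2 fold change of 0.06 and a range from −0.50 for *Mx2* to 0.42 for *Mx1*. DESeq2 called 2 of them lower, *Ifit2* (75.4 to 90.0 CPM in CharmeKO against 98.9 to 122 CPM in WT) and *Mx2* (29.0 to 33.1 against 38.3 to 50.6 CPM), with adjusted p-values of 0.0306 and 0.0489. Both encode antiviral proteins. Of the GTPases known as targets of interferon gamma, *Gbp2* had overlapping groups (log2 fold change 0.20 ± 0.14, edgeR, adjusted p = 0.597), and *Iigp1* was at 136 to 180 CPM in WT and 145 to 173 CPM in CharmeKO (adjusted p = 0.983). Of the 16 interferon receptor and signalling genes, 14 were tested and 0 passed by edgeR or DESeq2. *Socs1*, an inhibitor of the pathway, had the lowest log2 fold change of the list, −0.36, and *Irf1*, a transcription factor induced by interferons, was at 601 to 785 CPM in WT and 590 to 710 CPM in CharmeKO. The transcript of interferon gamma, *Ifng*, had 0 counts in WT and was at most 0.314 CPM in CharmeKO, and *Ifnb1* at most 0.0761 CPM in any library.

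**Figure D5:**
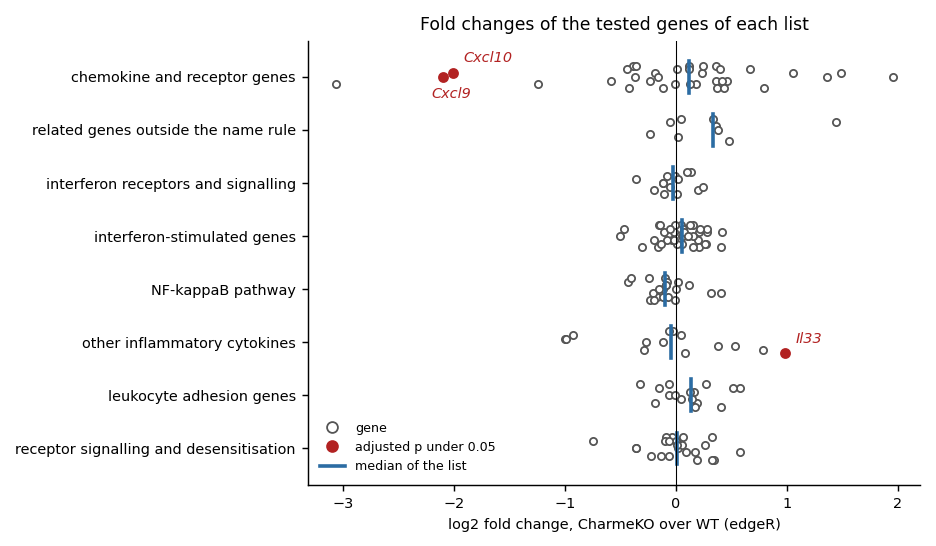
Log2 fold change of CharmeKO over WT for the tested genes of the chemokine group and of 7 lists of related genes. Each circle is a gene, filled red where the adjusted p is under 0.05, and the blue line is the median of the list. *Cxcl9* and *Cxcl10* stand at −2.10 and −2.01, whereas the interferon-stimulated genes lie between −0.50 and 0.42.

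Of the 21 genes of the NF-kappaB pathway, which also drives *Cxcl1*, *Cxcl2* and *Ccl2*, 0 passed in edgeR or DESeq2. The shares called over all tested genes were 0.830% in edgeR and 2.50% in DESeq2, for this list and those below. The log2 fold changes of the 21 genes had a median of −0.10 and ranged from −0.43 for *Nfkb2* to 0.40 for *Tnip1*, with 16 of 21 below 0. *Rela*, which encodes the p65 subunit, was at 186 to 196 CPM in WT and 117 to 171 CPM in CharmeKO (log2 fold change −0.40 ± 0.14, edgeR, adjusted p = 0.274). Of the 19 other inflammatory cytokines, 14 were tested, and *Il33*, an alarmin of stromal cells, rose from 12.7, 17.5 and 13.9 CPM in WT to 34.5, 28.8 and 23.9 CPM in CharmeKO (log2 fold change 0.98 ± 0.17, edgeR, adjusted p = 0.0221). *Tnf* was at 17.3 to 22.2 CPM in WT and 8.30 to 26.0 CPM in CharmeKO, and *Il6* at 63.7 to 79.4 and 61.2 to 92.2 CPM, and neither passed the test. Of 18 leukocyte adhesion genes, 16 were tested and 0 passed in edgeR, while DESeq2 called *Jam2*, a junction gene of endothelium, higher (adjusted p = 0.0258). Of the 9 relatives of the chemokine system outside the naming rule, such as the platelet chemokines *Pf4* and *Ppbp* and the atypical receptor genes *Ccrl2* and *Gpr182*, 0 passed in either test, with a median log2 fold change of 0.34. Of the 23 genes of receptor signalling and desensitisation, 0 passed in either test, with a median of 0.01.

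Summed levels of cell type markers were set beside *Cxcl9* and *Cxcl10*. For comparison, the groups of single genes did not overlap for 18.2% of all tested genes. The sums were lower without overlap for the epicardial markers (4 of 4 tested, 56.4 to 69.7 CPM in WT and 33.95 to 40.3 CPM in CharmeKO) and the venous endothelial markers (4 of 4 tested, 896 to 1067 and 716 to 836 CPM). They were higher without overlap for the cardiomyocyte markers (7 of 7 tested, 204 to 265 and 299.8 to 471 CPM) and the dendritic cell markers (3 of 5 tested, 46.7 to 58.9 and 60.2 to 72.4 CPM). Of the 5 dendritic cell markers, 4 had a mean below 1 CPM, and *Zbtb46* gave 46.6 to 70.9 CPM. Single markers that passed in edgeR, which called 0.830% of all tested genes, were *Wt1* of the epicardium (log2 fold change −0.66, adjusted p = 0.0189) and the cardiomyocyte genes *Myh6* (0.85, adjusted p = 0.0292) and *Tnni3* (0.95, adjusted p = 0.0200). DESeq2, which called 2.50% of all tested genes, called 4 cardiomyocyte markers higher. It called 2 fibroblast markers, 1 venous endothelial, 1 pericyte and 1 epicardial marker lower. In the dissociation response, the heat shock genes *Hspa1a* and *Hspa1b* were higher in CharmeKO (log2 fold changes of 1.30 and 1.59), whereas the other 8 of its 10 genes did not pass. The summed levels of macrophage, T and NK cell, B cell, neutrophil, fibroblast, endothelial, lymphatic endothelial, pericyte, smooth muscle, erythroid and Schwann cell markers overlapped between the groups. Their part in the lower *Cxcl9* and *Cxcl10* was not tested.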

How the data were processed

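mRNA of native CFs was sequenced in 3 WT and 3 CharmeKO libraries. Per the labels and the study's methods, the authors aligned Q30-filtered Illumina reads with STAR to the mouse assembly GRCm39 (the processing notes also list GRCh38), counted reads per gene on an Ensembl annotation with Charme added, in the "reverse" strand setting, and deposited raw counts without filter or normalization. They ran DESeq2, whose results were not used here. The column for gene type marks lncRNA and TEC rows only, so no gene was left out as a pseudogene.

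From these counts, genes that reached 10 counts in 2 or more libraries were normalized by TMM and tested with edgeR 4.0.16 (quasi-likelihood test, R 4.3.3), with Benjamini-Hochberg adjustment over all 15789 tested genes and a threshold of 0.05. Standard errors and 95% intervals were derived from the F statistics. No sample was left out, some genes are not reported here by name, and no pair of libraries agreed within sampling noise. The labels do not tie each library to 1 mouse, so p-values measure the spread between libraries.

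The members, gene lists and markers were chosen with earlier results of these data known. Named are the 14 ligand and 8 receptor genes with the highest mean CPM, every member called by edgeR or DESeq2, the ligands of Cxcr3, and the called genes of other lists; other genes are named as list examples or after their values were seen. Lists were described by counts and medians, without a set test. Exonic lengths, overlaps and near-identical copies (blastn 2.17.0, 97% identity over 50% or more of the transcript) came from GENCODE M21 on GRCm38, and promoter windows from RefSeq. Alternatives were DESeq2 1.42.0, its size factors or upper-quartile scaling in edgeR, 3 other filters, the replicate number as a block, each library left out and, added after the data were seen, a term for the Xist split. Figures were drawn with matplotlib 3.10.9.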

Additional observations from a re-analysis of the deposited data

How the results depend on the processing

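Cxcl9 and Cxcl10 were called lower in all 14 alternatives, with log2 fold changes from −2.49 to −1.90 and from −2.10 to −1.95. The number of genes called among all tested genes was 131, and it was 394 with DESeq2, 699 with a filter of 1 count in any library, 302 with the replicate block, and 61 to 349 when libraries were left out one by one. The filter of 1 count gave 1 chemokine gene called higher, Cxcl5, in place of 0, and the cause was not tested.

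The replicate numbers were not taken as pairs, because the correlations of same-numbered libraries, 0.216, 0.053 and 0.161, were not all above 0.1, although every library correlated best with its own number. With the replicate block, the log2 fold change was −2.02 for Cxcl10 and −2.17 for Cxcl9, and the block changed the call of no chemokine or receptor gene.

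Signs were compared for the 23 genes chosen by abundance, by a call or as Cxcr3 ligands, and not for the other tested chemokine and receptor genes. For the following 9 of them, leaving out a library turned the sign. With each library left out, the log2 fold change ranged from −0.57 to 0.041 for Ackr4, −0.61 to 0.84 for Ccl11, −0.13 to 0.23 for Ccl25, −0.12 to 0.40 for Ccl7, −0.15 to 0.40 for Ccr7, −0.56 to 0.14 for Ccr8, −0.084 to 0.35 for Cxcl1, −0.089 to 0.25 for Cxcl14 and −0.17 to 0.36 for Cxcr5. It was −0.11 for Ccl25 with the Xist term, and 0.022 for Cxcr5 with the replicate block and 0.000347 with upper-quartile scaling. The summed ligand and receptor levels moved by less than 1 SD under the other scalings and with each library left out. Counting limits bear most on the 12 tested genes with a mean below 1 CPM, for which differences were not detectable at this depth unless large.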
